A study of Homo sapiens with 6 samples.

Results

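ATF4 and 9 of its target genes of stress and amino acid synthesis were followed in the triple-negative breast cancer line MDA-MB-231, which is of human origin and long established, after knockdown of VASP, an actin regulator of cell protrusions and adhesions. The 10 genes were taken by name (ATF4, CHAC1, ASNS, PSAT1, PHGDH, PSPH, TRIB3, DDIT3, DDIT4 and SESN2) from the 61155 gene symbols of the deposited count table. The tested group was 3 libraries of VASP knockdown cells, titled shVASP, and it was set against 3 libraries of control cells, titled plko. All cells were harvested 48 hours after transfection. The titles point to a short hairpin RNA and its empty vector, while the sample characteristics and the treatment protocol give siRNAs delivered by lipid transfection, directed at VASP or used as a negative control. Both sets of labels give the same groups, and the reagent cannot be told from them. Per the labels, the medium of every culture held serum, insulin and added nonessential amino acids, a supplement that contains serine and asparagine. The 3 control columns all extend the title of the first control sample by a further number, so they may be the 3 control samples or repeats of a single one, and n = 3 for control counts these columns. The labels do not say whether the libraries of a group were separate cultures, and the p-values here reflect only how far these libraries spread, which may be a technical spread. In bulk RNA, fewer cells that express a gene and less of its RNA per cell cannot be told apart.

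ATF4 is the transcription factor of the integrated stress response. Kinases that sense missing amino acids, misfolded proteins, viral RNA or lack of heme phosphorylate the initiation factor eIF2, general translation slows, and translation of the ATF4 mRNA rises through its upstream open reading frames. ATF4 protein then pairs with C/EBP factors and turns on genes that make and import amino acids, and, when stress lasts, genes that limit growth or favour cell death. Its level is therefore set largely in translation, which a count of mRNA does not measure. MDA-MB-231 is known as a line with little PHGDH, the enzyme that opens the serine pathway.

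Libraries held 28856610 to 30055503 counts each, and VASP had 396, 379 and 360 counts in the knockdown libraries, against 4544, 5036 and 4708 in the control libraries (edgeR adjusted p = 8.3e-24, log2 fold change -3.69, SE 0.06). Markers known to be high in MDA-MB-231 (VIM, CD44, EGFR, CAV1, AXL and S100A4) summed to 874 to 890.5 CPM per kilobase in knockdown libraries and 896.5 to 906 in control libraries, where CPM is the usual count scaled to the TMM-adjusted library total. VIM and AXL had the highest means of these, 328 and 342 in knockdown and 321 and 368 in control. S100A4 was not high here, with means of 9.87 CPM per kilobase in knockdown and 13.0 in control. Among the 6 markers EGFR rose and S100A4 fell by edgeR. Those known to be low (ESR1, PGR, ERBB2, CDH1 and EPCAM) summed to 11.4 to 12.2 in knockdown libraries and 12.8 to 13.2 in control libraries. Nearly all of it came from ERBB2 and EPCAM, and ERBB2 fell (edgeR adjusted p = 0.035). Of the 4 fibroblast markers, DCN and LUM had no count in any library. The summed level of the 4 fibroblast, 4 leukocyte or 4 endothelial markers was at most 1.67 CPM per kilobase in knockdown libraries and 1.81 in control libraries. The endothelial marker PECAM1 fell (edgeR adjusted p = 0.026).

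ATF4 and its C/EBP partners bind a composite DNA word, TGATGNAA on either strand, in several of these genes. It was looked for in RefSeq promoters (build GRCh38.p14, 250 bases before to 50 after each start), of which 3.62% of 35116 held it. By gene, 2.74% of the 10804 tested genes with a promoter there held it in at least 1 promoter. Of the 9 genes with a promoter in that table, CHAC1 and ASNS held it. Of 23 other known ATF4 targets with a promoter there, 8 held it: CEBPG, JDP2 and SLC3A2 rose, ATF3, SLC1A4, SLC1A5 and SLC7A1 did not pass the test, and FGF21 was not tested. The 4 stretches below are shown because they carry the word in the gene that rose most, in a gene that did not pass the test and in 2 bZIP genes that rose; a further bZIP gene, ATF3, held the form TGATGGAA and had a log2 fold change of -0.35 (edgeR adjusted p = 0.35). Each is written on the strand of its gene with the word in capitals; in CHAC1 it reads on the opposite strand.
CHAC1: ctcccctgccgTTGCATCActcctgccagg
ASNS: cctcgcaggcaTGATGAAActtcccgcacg
CEBPG: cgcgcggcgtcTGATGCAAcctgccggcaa
JDP2: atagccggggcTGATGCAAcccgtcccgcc
The stretches lie at chr15:40953251-40953280 (plus strand, CHAC1), chr7:97872458-97872487 (minus strand, ASNS), chr19:33374060-33374089 (plus strand, CEBPG) and chr14:75427995-75428024 (plus strand, JDP2). The word starts 209 bases before the RefSeq start in CHAC1, 68 in ASNS, 42 in CEBPG and 16 in JDP2. In CHAC1 and ASNS it falls within an exon of a longer transcript in the annotation used for counting. The exact form TGATGCAA, found in CHAC1, CEBPG and JDP2, was held by 0.866% of the promoters. It was also found in SLC1A4 and SLC1A5, which did not pass the test, and in FGF21, which was not tested. The form TGATGAAA, found in ASNS and SLC7A1, was held by 1.11%. Such a match is a description of the sequence and says nothing of binding in these cells.

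Small rises in 5 stress and serine pathway genes followed VASP knockdown, while ATF4 mRNA itself, PSPH and ASNS did not pass the test. Of the 10 genes 9 could be tested. CHAC1, PHGDH, DDIT3, TRIB3 and PSAT1 rose by 1.15-fold to 1.37-fold, DDIT4 fell 1.16-fold, and SESN2 had no counts to test. Over all 16633 genes tested, 18.9% rose and 18.3% fell (edgeR quasi-likelihood test, adjusted p under 0.05), so 37.2% passed in either direction. Without control library 1, 3 of the 10 genes passed, CHAC1, PHGDH and TRIB3. In that setting 5490 of all 16999 genes tested passed. The median log2 fold change of the 9 genes was 0.20, against -0.01 over all genes tested. Because the 10 genes were picked with earlier results of these data known, the comparison with that background is a description only.

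**Figure D1:**
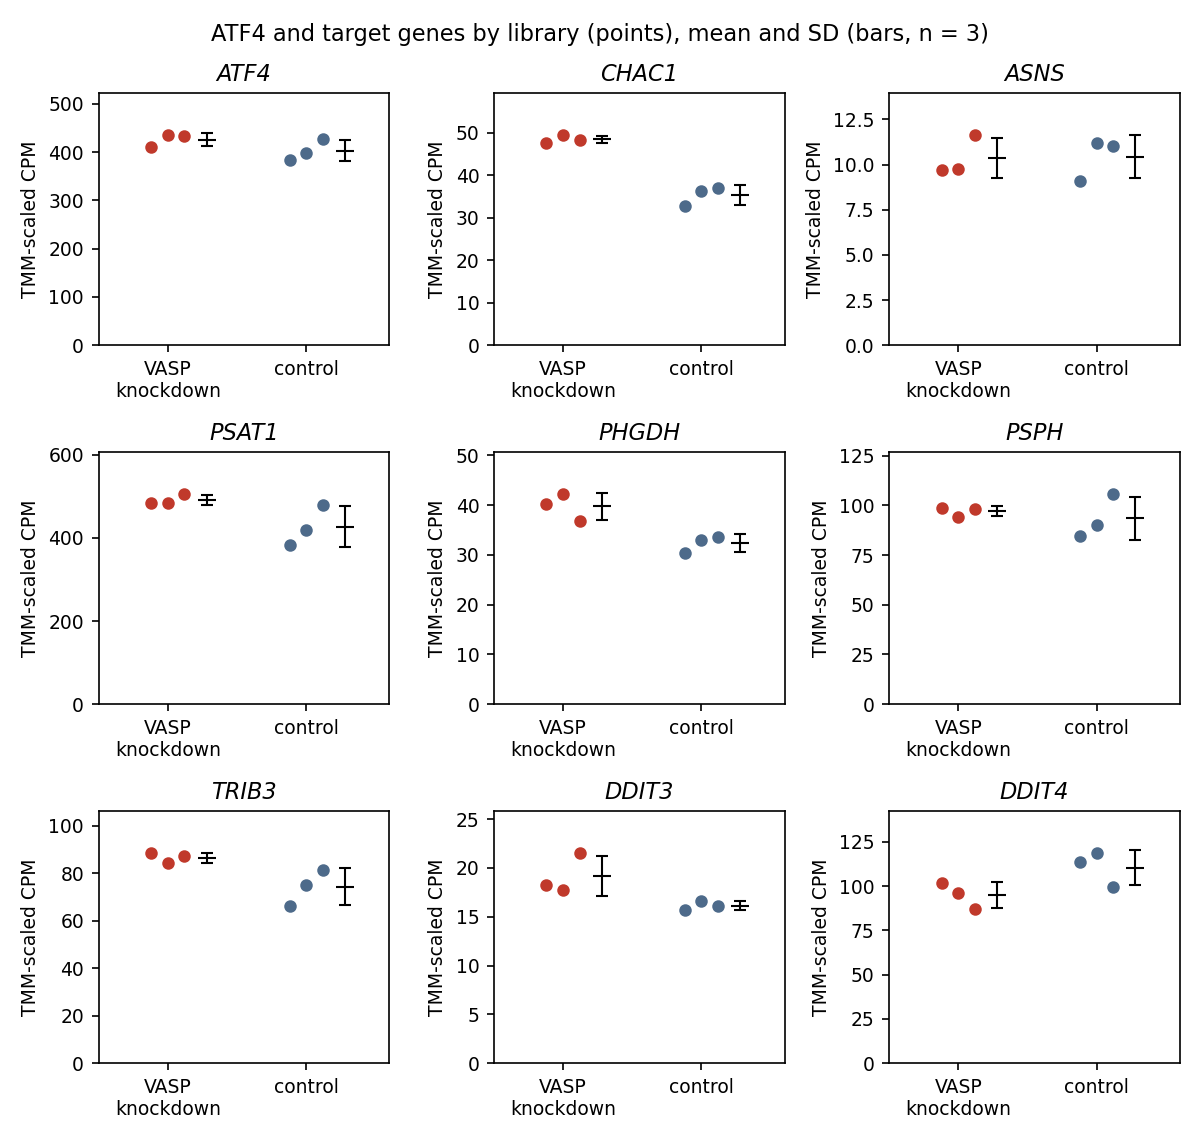
TMM-scaled CPM (y axis, from 0) of the 9 genes with counts in each of the 3 VASP knockdown libraries (left) and the 3 control libraries (right); bars give mean and SD. All 3 knockdown points lie above all 3 control points for CHAC1, PHGDH, TRIB3, PSAT1 and DDIT3, and the groups overlap for ATF4, ASNS, PSPH and DDIT4.

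ATF4 (chromosome 22, 39519695 to 39522685, plus strand, GRCh38) was among the most abundant mRNAs, above 98.4% of tested genes in mean level. It had 411, 434.5 and 433 CPM in the knockdown libraries and 384, 398 and 427 CPM in the control libraries. The lowest knockdown library lay below the highest control library, so the groups overlapped. Its log2 fold change was 0.08 (SE 0.05, 95% interval -0.02 to 0.18, edgeR adjusted p = 0.23). With an offset for GC content and gene length in the fit, ATF4 passed at a log2 fold change of 0.17 (adjusted p = 0.012, against 0.012 to 0.53 over the 12 alternative settings). Fold change followed GC content in these libraries: the decile of tested genes lowest in GC had a median log2 fold change of 0.18 and the highest decile one of -0.24.

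CHAC1, a gamma-glutamyl cyclotransferase that breaks down glutathione and is a late target of ATF4, showed the largest change of the 9. CHAC1 (chromosome 15, 40952962 to 40956512, plus strand) had 47.7, 49.35 and 48.4 CPM in knockdown libraries and 32.7, 36.3 and 36.9 CPM in control libraries. The 3 knockdown values lay close together and well above every control value; over all tested genes the knockdown libraries lay wholly above the control libraries in 24.1% and wholly below in 23.5%. CHAC1 rose 1.37-fold, with means of 48.5 ± 0.846 CPM in knockdown and 35.3 ± 2.285 CPM in control (SD, n = 3 each, log2 fold change 0.46, SE 0.06, edgeR adjusted p = 1.9e-06). It passed the test under all 12 alternative settings, with log2 fold changes of 0.41 to 0.67. CHAC1 has a GC content of 62.6%, in the decile with that median of -0.24. Its change was larger in size than that of 87.3% of tested genes.

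DDIT3 encodes CHOP, a bZIP factor that acts with ATF4 under lasting stress and is tied to cell death. DDIT3 (chromosome 12, 57516588 to 57521737, minus strand) had 18.2, 17.7 and 21.5 CPM in knockdown libraries and 15.7, 16.6 and 16.1 CPM in control libraries. The groups did not overlap, and 1 knockdown library stood above the other 2. DDIT3 rose 1.19-fold (log2 fold change 0.25, SE 0.08, edgeR adjusted p = 0.015). Without knockdown library 3 its log2 fold change was 0.16 (adjusted p = 0.149), and its adjusted p was 0.0503 without control library 1 (0.0034 to 0.149 over 12 settings). Of its 1307 exon bases, 355 overlap the methionyl-tRNA synthetase gene MARS on the other strand. DDIT3 also shares 105 bases with AC022506.1 on the same strand and 58 with MBD6 on the other strand. MARS itself fell (log2 fold change -0.24, edgeR adjusted p = 0.0013), and fragments touching both genes were not counted.

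TRIB3, a pseudokinase that binds ATF4 and CHOP and dampens them in a feedback loop, also rose. TRIB3 (chromosome 20, 362835 to 397559, plus strand) had 88.3, 84.1 and 87.05 CPM in knockdown libraries and 66.0, 75.1 and 81.5 CPM in control libraries. The groups did not overlap, and the control libraries were spread more widely than the knockdown libraries. The rise was 1.17-fold (log2 fold change 0.22, SE 0.06, edgeR adjusted p = 0.0064). It came to a log2 fold change of 0.14 without control library 1 and 0.40 with the GC and length offset, and TRIB3 passed in every setting (adjusted p 7.7e-05 to 0.047).

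The genes that restrain growth signalling through mTORC1 gave 1 decrease and 1 gene without data. DDIT4 encodes REDD1, which acts through the TSC complex to lower mTORC1 activity. DDIT4 (chromosome 10, 72273924 to 72276036, plus strand) had 102, 96.1 and 87.3 CPM in knockdown libraries and 114, 118.5 and 99.35 CPM in control libraries. The highest knockdown library lay above the lowest control library. DDIT4 fell 1.16-fold by the test (edgeR adjusted p = 0.014, log2 fold change -0.22, SE 0.06). The call was lost without control library 1, control library 2 or knockdown library 3 (log2 fold change -0.20, -0.16 and -0.16). It was also lost with the GC and length offset, where the log2 fold change was -0.03 (adjusted p = 0.67, against 0.00014 to 0.67 over 12 settings). The GC content of DDIT4 is 61.2%, and 847 of its 2054 exon bases overlap DDIT4-AS1 on the other strand. Fragments touching both genes were not counted, so the level of DDIT4 is an undercount. DDIT4-AS1 had no counts in any library, which for the same reason cannot be read as its level.

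SESN2, the leucine-sensing Sestrin that holds back mTORC1 through GATOR2, had 0 counts in all 6 libraries. The annotation places SESN2 both on chromosome 1 (28259518 to 28282491, plus strand) and on a patch sequence of that chromosome, with 3462 exon bases on each. By the counting command's defaults, fragments with several alignments were not counted. The other genes on both this patch and a chromosome, ATP5IF1, an inhibitor of the mitochondrial ATP synthase, and MED18, a Mediator subunit, had 1 count each over all 6 libraries. Of 1120 coding genes annotated both on a chromosome and on a patch or alternate sequence, 54.2% had no count, against 13.7% of 18612 coding genes on a chromosome only. What the double placement contributes was not tested further, and the zero cannot be read as the level of SESN2.

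Of the 3 enzymes of serine synthesis, PHGDH and PSAT1 rose and PSPH did not pass the test. PHGDH, which oxidises the glycolytic intermediate 3-phosphoglycerate, lies on chromosome 1 (119648411 to 119744226, plus strand). PHGDH had 40.2, 42.15 and 36.9 CPM in knockdown libraries and 30.3, 33.1 and 33.7 CPM in control libraries. All knockdown values lay above all control values, and the means were 39.75 ± 2.65 CPM in knockdown and 32.35 ± 1.78 CPM in control (SD, n = 3 each). PHGDH rose 1.23-fold (log2 fold change 0.30, SE 0.06, edgeR adjusted p = 0.00061) and passed in all 12 alternative settings.

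PSAT1, the aminotransferase of the second step, uses glutamate as the nitrogen donor and had the highest mean level of the 9 genes with counts. PSAT1 (chromosome 9, 78297125 to 78330093, plus strand) had 484, 485 and 505 CPM in knockdown libraries and 383, 419 and 480 CPM in control libraries. The groups did not overlap, although the lowest knockdown and the highest control library were close. PSAT1 rose 1.15-fold (edgeR adjusted p = 0.018, log2 fold change 0.20, SE 0.06). The log2 fold change was 0.13 without control library 1. The adjusted p was 0.099 there, 0.097 without control library 2 and 0.072 with the GC and length offset (5.2e-05 to 0.099 over 12 settings). PSPH, the phosphatase of the last step (chromosome 7, 56011051 to 56051604, minus strand), had 98.6, 94.1 and 98.3 CPM in knockdown libraries and 84.75, 90.1 and 105.5 CPM in control libraries. The knockdown values fell inside the control range, with a log2 fold change of 0.05 (95% interval -0.08 to 0.19, edgeR adjusted p = 0.54). PSPH passed in 1 setting, without control library 3, at a log2 fold change of 0.15.

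ASNS, asparagine synthetase, moves an amide nitrogen from glutamine to aspartate and is a classical target of ATF4. ASNS (chromosome 7, 97851677 to 97872542, minus strand) had 9.72, 9.74 and 11.6 CPM in knockdown libraries and 9.08, 11.2 and 11.03 CPM in control libraries. The groups overlapped, with 1 knockdown library highest and 1 control library lowest, and with a log2 fold change of -0.01 (SE 0.10, 95% interval -0.21 to 0.19, edgeR adjusted p = 0.94). Only 288 to 341 counts in knockdown libraries and 265 to 325 in control libraries lay behind these values. Of its 4896 exon bases 2415 are shared with the symbol AC079781.5 on the same strand, and fragments touching both were not counted. AC079781.5 had 76 to 95 counts in knockdown libraries and 88 to 95 in control libraries (log2 fold change -0.14, edgeR adjusted p = 0.48). The level of ASNS is therefore an undercount, and how its shared exons changed was not measured.

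**Figure D2:**
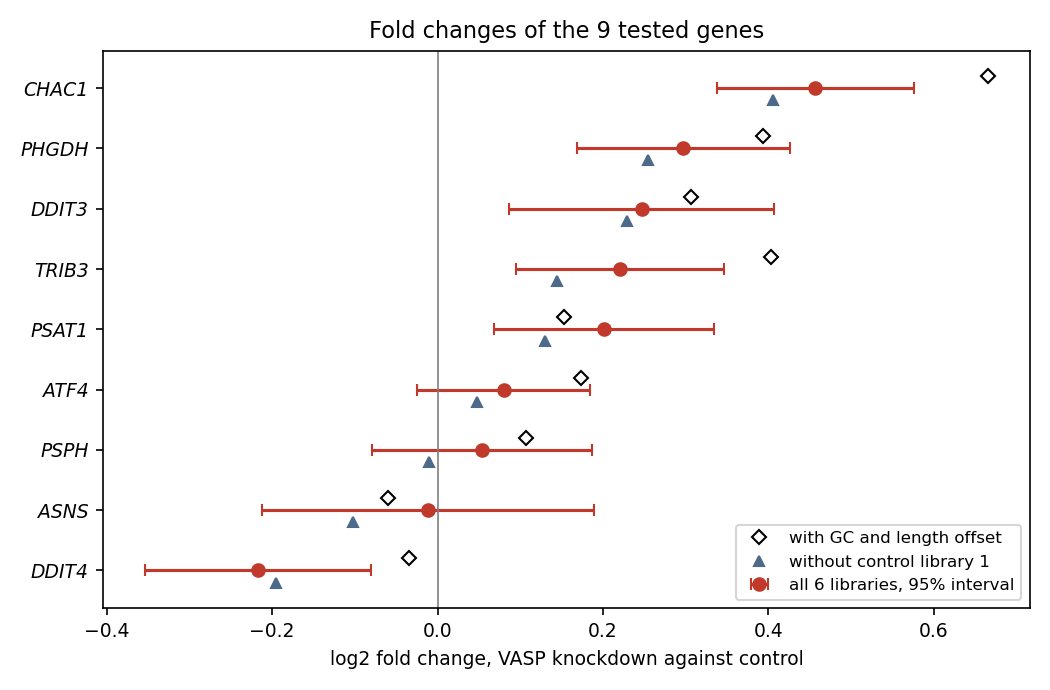
Log2 fold change of VASP knockdown against control (x axis) for the 9 genes with counts, with 95% intervals from edgeR (red), the value with an offset for GC content and gene length (diamonds) and the value without control library 1 (triangles). CHAC1 is highest at 0.46; DDIT4 is lowest at -0.22 and lies at -0.03 with the offset.

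Set per kilobase of merged exons, the enzymes of the serine pathway stood far apart in level. PSAT1 had 223 ± 5.29 CPM per kilobase in knockdown and 194 ± 22.4 in control, and ATF4 followed with 169.5 ± 5.18 in knockdown and 160 ± 8.66 in control (SD, n = 3 each). In control libraries the lowest PSAT1 value, 173.5, stood just above the highest ATF4 value, 169.8. DDIT4 came next at 46.3 ± 3.56 CPM per kilobase in knockdown and 53.8 ± 4.85 in control, above PSPH at 35.1 ± 0.898 in knockdown and 33.8 ± 3.90 in control. TRIB3 had 28.5 ± 0.714 CPM per kilobase in knockdown and 24.5 ± 2.57 in control, and CHAC1 had 23.6 ± 0.412 in knockdown and 17.2 ± 1.11 in control. DDIT3 followed at 14.65 ± 1.56 CPM per kilobase in knockdown and 12.3 ± 0.341 in control. These 7 genes and PHGDH and ASNS after them kept apart from their neighbours in this order within each group, with no overlap of libraries. The order was not corrected for fragments with several alignments, which were not counted. Nor was it corrected for exon bases shared with other symbols, 847 of 2054 in DDIT4 and 355 of 1307, with MARS, in DDIT3. DDIT3 also shares 105 bases with AC022506.1 and 58 with MBD6. Fragments touching both genes were not counted there, so DDIT4 and DDIT3 are undercounts, and the place of DDIT3 below CHAC1 may rest on this. PHGDH had 4.31 ± 0.288 CPM per kilobase in knockdown and 3.51 ± 0.193 in control. ASNS had 2.115 ± 0.222 in knockdown and 2.13 ± 0.241 in control, in part for the uncounted bases. PSAT1 exceeded PHGDH 48.1-fold to 57.1-fold in knockdown libraries and 52.7-fold to 59.6-fold in control libraries. The level of PHGDH on this scale rests on a merged exon length of 9217 bases, and which of these exons the cells use was not measured.

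**Figure D3:**
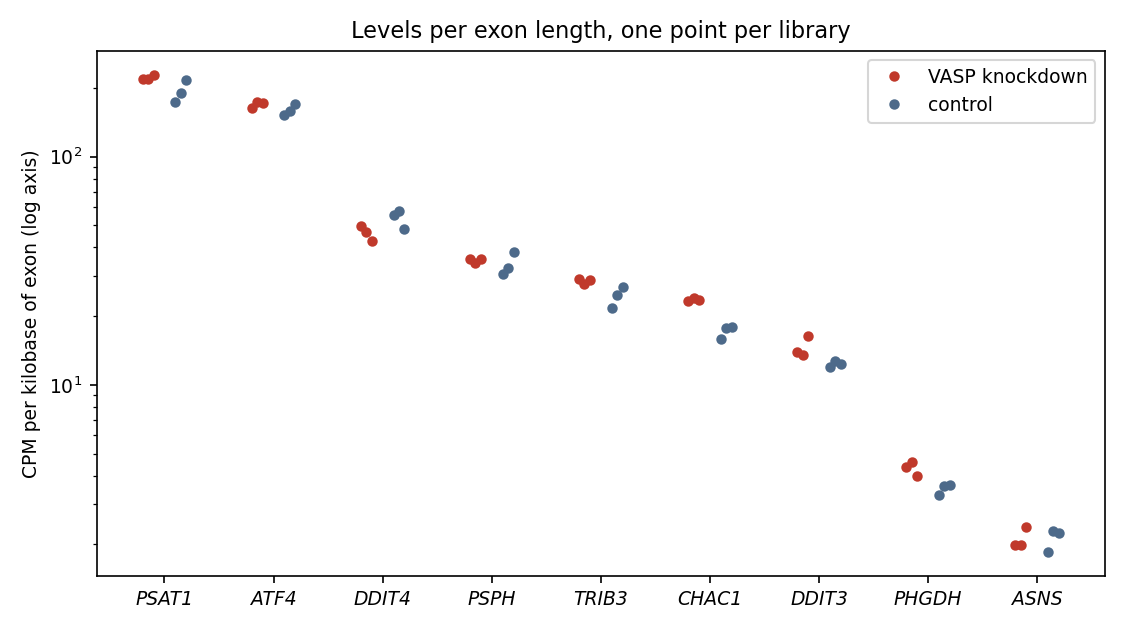
TMM-scaled CPM per kilobase of merged exons (y axis, log scale) of the 9 genes with counts, with 1 point for each VASP knockdown library (left of each pair) and each control library (right). Mean levels in knockdown run from 223 for PSAT1 to 2.115 for ASNS, and differences between genes are much larger than those between groups.

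Upstream of ATF4, 2 of 11 eIF2 alpha kinases, phosphatase subunits and their regulators rose and the other 9 did not pass by edgeR (median log2 fold change -0.02). With the GC and length offset 2 rose and 1 fell. PPP1R15B, the constitutive subunit that brings the phosphatase to eIF2, rose 1.25-fold to 129 ± 2.05 CPM in knockdown, against 104 ± 3.46 CPM in control (SD, n = 3 each, edgeR adjusted p = 1.4e-05). EIF2AK3, the endoplasmic reticulum kinase PERK, rose 1.13-fold (edgeR adjusted p = 0.033), a call lost in 6 of 12 settings: DESeq2, the GC and length offset (log2 fold change 0.09), and without control library 1 or 2 or knockdown library 1 or 3 (adjusted p 0.031 to 0.30 over all 12). The other kinases EIF2AK1, EIF2AK2 and EIF2AK4 did not pass. Of 8 eIF2 and eIF2B subunits 3 rose and 5 did not pass by edgeR (median log2 fold change 0.04). EIF2S1, the phosphorylated alpha subunit, rose 1.23-fold to 187 ± 4.97 CPM in knockdown, against 151 ± 8.63 CPM in control (SD, n = 3 each, edgeR adjusted p = 4.2e-05), with a log2 fold change of 0.30 and, with the offset, 0.17. The exchange factor subunits EIF2B3 and EIF2B2 rose 1.25-fold and 1.11-fold. EIF2B2 did not pass without control library 2 or 3 or without knockdown library 1.

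The bZIP partners and relatives of ATF4 went in both directions, with 5 of 13 up and 3 down (median log2 fold change -0.01), and 3 up and 2 down with the GC and length offset. Over all tested genes, 16.9% rose and 12% fell with that offset. CEBPG, a dimer partner of ATF4 whose promoter stretch is shown above, rose 1.22-fold (edgeR adjusted p = 0.00037), and NFE2L2, the oxidative stress factor NRF2, rose 1.26-fold. CEBPD, an inflammatory C/EBP factor, fell 1.63-fold to 37.4 ± 2.95 CPM in knockdown, against 61.1 ± 7.05 CPM in control (SD, n = 3 each, edgeR adjusted p = 4.3e-06), with a log2 fold change of -0.71 and, with the offset, -0.32. NFE2L1, which drives proteasome genes, fell 1.23-fold.

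Other known targets of ATF4 also went in both directions. Of 38 listed, 36 were tested, 11 rose and 8 fell, with a median log2 fold change of -0.00, and 15 rose and 5 fell with the GC and length offset. SLC38A2, a sodium-coupled importer of neutral amino acids, rose 1.22-fold to 499 ± 15.1 CPM in knockdown, against 409 ± 16.0 CPM in control (SD, n = 3 each, edgeR adjusted p = 8.2e-05), with a log2 fold change of 0.29 and, with the offset, 0.15. SARS, seryl-tRNA synthetase, rose 1.21-fold. The proline synthesis enzymes moved the other way: ALDH18A1, which starts that pathway, fell 1.40-fold (edgeR adjusted p = 1.7e-07), and PYCR1, which ends it, fell 1.36-fold (edgeR adjusted p = 1.5e-06, log2 fold change -0.45 and, with the offset, -0.25). JDP2 rose 1.19-fold (edgeR adjusted p = 0.0090).

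Around the serine pathway, 7 of 23 tested enzymes of serine, glycine and folate one-carbon metabolism rose and 3 fell (median log2 fold change -0.03). SPTLC1, a subunit of the enzyme that joins serine to palmitoyl-CoA, rose 1.20-fold (log2 fold change 0.26 and, with the offset, 0.17), and MTRR, which keeps methionine synthase active, rose 1.16-fold. MTR, methionine synthase, fell 1.23-fold to 61.65 ± 3.49 CPM in knockdown, against 76.0 ± 1.64 CPM in control (SD, n = 3 each, edgeR adjusted p = 8.45e-05). Among enzymes of aspartate, glutamine and proline, 5 of 19 tested rose, or 3 without control library 2, and 5 fell (median log2 fold change 0.05). ASS1, which consumes aspartate to make argininosuccinate, rose 1.22-fold, and the pyruvate carboxylase gene PC fell 1.30-fold (log2 fold change -0.38 and, with the offset, -0.21).

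Of 7 paralogs of the 10 genes 3 rose and 2 fell by edgeR (median log2 fold change -0.14). None of the 3 passed without control library 2 (adjusted p 0.058 to 0.14), and 1 rose without knockdown library 3, 1 with DESeq2 and 1 with the GC and length offset. CHAC2, the constitutive relative of CHAC1, rose 1.23-fold from a low level, with 7.12 ± 0.193 CPM in knockdown and 5.775 ± 0.287 CPM in control (SD, n = 3 each, edgeR adjusted p = 0.019). TRIB2 fell 1.61-fold (25.1 ± 0.999 CPM in knockdown, 40.4 ± 3.89 CPM in control, SD, n = 3 each, edgeR adjusted p = 4.8e-08), while TRIB1 rose 1.11-fold (edgeR adjusted p = 0.048). The groups overlapped for TRIB1, and its call was lost with DESeq2 and without control library 2 or 3 or knockdown library 2 or 3 (adjusted p 0.010 to 0.19 over 12 settings). Of the other Sestrins, SESN1 rose 1.24-fold and SESN3 fell 1.18-fold. The log2 fold changes of CHAC2 and SESN1 were 0.19 and 0.21 with the GC and length offset and did not pass. CHAC2 was also lost with DESeq2 and without control library 1 or 2 or knockdown library 3, SESN1 without control library 2 or knockdown library 1, and SESN3 without control library 1. ATF5 and DDIT4L had log2 fold changes of -0.14 and -0.62 and did not pass; ATF5 passed without control library 1, and DDIT4L without control library 3 or knockdown library 3.

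In the mTORC1 network that REDD1 and the Sestrins feed into, 5 of 26 genes rose and 8 fell (median log2 fold change -0.07), with 2 up and 4 down with the GC and length offset. Without control library 1 or control library 2, 2 rose, and 5 fell without knockdown library 1 or without a low-count filter. RRAGD, a Rag GTPase that recruits mTORC1 to the lysosome, fell 2.09-fold to 19.8 ± 1.18 CPM in knockdown, against 41.4 ± 1.07 CPM in control (SD, n = 3 each, edgeR adjusted p = 4.9e-12). RRAGA fell 1.29-fold. TSC2, the GTPase-activating subunit of the TSC complex, and AKT1S1, an inhibitory subunit of mTORC1, fell 1.20-fold and 1.16-fold, and did not pass with the offset (log2 fold change -0.09 and -0.01).

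In the other arms of the unfolded protein response, run by ATF6 and IRE1, 1 of 14 tested genes rose and 4 fell (median log2 fold change 0.01), with 1 up and 2 down with the GC and length offset and 2 up without control library 1. PDIA4, a disulfide isomerase, fell 1.30-fold and EDEM1, which extracts misfolded glycoproteins, fell 1.28-fold. CRELD2 fell 1.25-fold (log2 fold change -0.19 with the offset, not passing) and XBP1, the IRE1 substrate, rose 1.11-fold, a call lost without control library 1. HSPA5, the main chaperone of this compartment, did not pass. Of 10 genes of glutathione synthesis and turnover 2 rose and 3 fell (median log2 fold change -0.04), with 1 up and 2 down with the GC and length offset, and 1 up without control library 1, control library 2 or knockdown library 3. GGCT rose 1.39-fold to 11.2 ± 0.498 CPM in knockdown, against 8.07 ± 0.868 CPM in control (SD, n = 3 each, edgeR adjusted p = 0.00032). GGT5 and GGT1, which cleave extracellular glutathione, fell 1.43-fold and 1.61-fold. OPLAH fell 1.29-fold (log2 fold change -0.09 with the offset, not passing), a call also lost without control library 2 or knockdown library 2.

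Of 7 cell death genes linked to CHOP 3 rose and 3 fell (median log2 fold change 0.02). PMAIP1, the BH3-only protein NOXA, rose 1.40-fold to 180 ± 11.5 CPM in knockdown, against 129 ± 4.17 CPM in control (SD, n = 3 each, edgeR adjusted p = 1.5e-07), and BCL2L11, the BH3-only protein BIM, rose 1.20-fold. TNFRSF10B, the death receptor DR5, fell 1.19-fold and the oxidase gene ERO1A fell 1.23-fold. The third gene that rose was BCL2 (log2 fold change 0.32, edgeR adjusted p = 0.0068). The third that fell was BBC3 (log2 fold change -0.26, edgeR adjusted p = 0.019). Of the list genes given here, EIF2B2, NFE2L2, PYCR1, ATF5 and GGCT share over 20% of their exon bases with other symbols, so their levels are undercounts. Such sharing was not examined for ATF3, JDP2, BCL2 and BBC3.

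**Figure D4:**
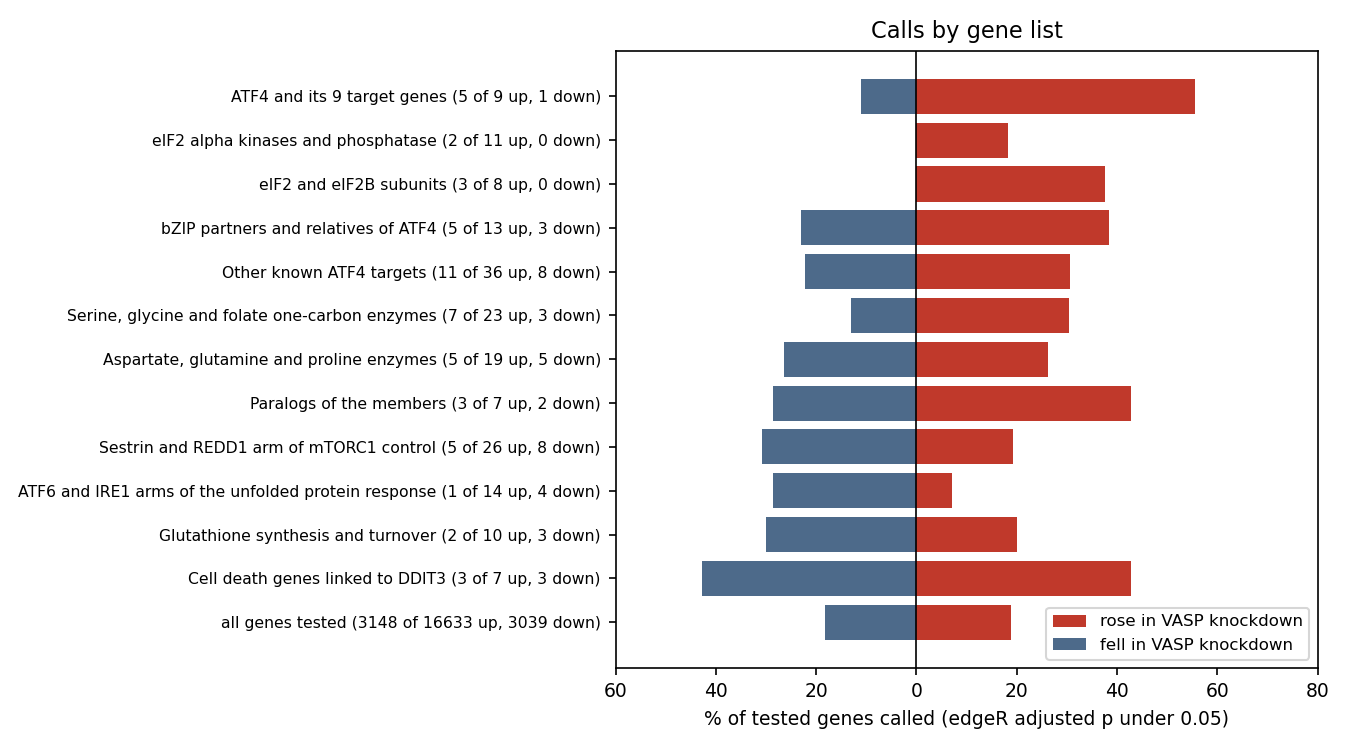
Share of tested genes (x axis, %) that rose (red, right) or fell (blue, left) in VASP knockdown by edgeR at an adjusted p under 0.05, for ATF4 and its 9 target genes, 11 other lists and all genes tested. In ATF4 and its targets 5 of 9 rose and 1 fell, and the list of 36 other tested ATF4 targets had 11 up and 8 down.

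Among the genes whose profile over the 6 libraries was nearest to that of CHAC1, by Euclidean distance of mean-centred log2 CPM in a comparison of 12302 candidates, were KRIT1, KIAA1586, AP000866.6 and NIP7. Their distances were 0.08 to 0.11, and they rose 1.32-fold to 1.41-fold. Their GC content was 35.8% to 45.9%, against 62.6% for CHAC1. The likeness is a description that follows the difference between the groups.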

How the data were processed

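RNA was measured in 3 VASP knockdown and 3 control libraries. The deposited table holds whole-number fragment counts per gene symbol, not normalized. Per the file headers, the authors ran featureCounts 1.6.4 on read pairs over exons of GENCODE release 32 (GRCh38, patches included), with no option for strand, multi-mapping or overlapping genes. The submitters' processing notes name Trim Galore 0.6.4 and STAR 2.7.1a. The control columns are named after the first control sample with a further number and may be repeats of it, so control libraries carry numbers by table order as names only. The chi-square per degree of freedom over genes was 5.64 to 9.64 between libraries of a group and 21.8 to 28.6 between groups, so no pair agreed within sampling noise.

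Genes were filtered with filterByExpr, scaled by TMM and tested with edgeR 4.0.16 (robust quasi-likelihood, two-sided, R 4.3.3) over all 16633 genes, with Benjamini-Hochberg adjustment and a threshold of 0.05. CPM are TMM-scaled. The biological coefficient of variation was 4.81%, and the floor of 3 counts lay at 0.0998 to 0.104 CPM. Alternatives were RLE scaling, other filters, DESeq2 1.42.0, limma 3.58.1 voom, a spline offset of GC content (GENCODE 29 transcripts, 97.4% of tested genes) and length, and leaving out each library. The fit was tested on simulated data. These held far fewer changed genes than the 6187 that passed here and no trend with GC content, so removal of such a trend was not tested.

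The 10 genes and the other 11 lists were chosen with earlier results of these data known. Genes named are the 10, VASP, tested paralogs, up to 4 genes of a list with the smallest p below the threshold, and the 5 nearest to CHAC1, the gene of the 10 with the smallest p. Of the genes this rule names, 2 are not reported here. JDP2, EIF2AK1, EIF2AK2, EIF2AK4, HSPA5, BCL2, BBC3, targets with the promoter word, and overlapping and patch genes were added after their values were seen.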

Additional observations from a re-analysis of the deposited data

How the results depend on the processing

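Over 12 alternative settings, CHAC1, PHGDH and TRIB3 kept their direction and passed each time, and the log2 fold change of VASP ran from -3.73 to -3.54. Of the 10 genes, 6 passed (5 up, 1 down), and leaving out single libraries gave 3 to 7, with 3 to 6 up and 0 to 1 down. The lowest count, 3 genes, came without control library 1, where 5490 of all 16999 genes tested passed. With the GC and length offset in edgeR 5 rose, ATF4 among them and PSAT1 not, and 0 fell (also 0 at an unadjusted p under 0.05, while 1 fell by DESeq2 without the offset). ASNS had a log2 fold change of 0.0095 without a low-count filter, 0.0001 with DESeq2 and -0.1017 to 0.0417 when single libraries were left out. PSPH ran from -0.0108 to 0.1506 when single libraries were left out, and ATF5 stood at 0.0468 with the offset. Over all genes 6187 passed, with 5069 in DESeq2, 4812 with the offset and 4481 to 6399 with a library left out. The causes were not tested. No paired analysis was possible because the control columns carry no number that ties them to a control sample. Depth limits ASNS and DDIT3 most: DDIT3 had 524 to 631 counts in knockdown and 458 to 481 in control libraries.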
